A study of Sus scrofa with 85 samples.

Results

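Micro-EMB of the non-infarcted region at 14 days after a myocardial infarction were compared with micro-EMB taken before the infarction. Micro-EMB is an endomyocardial biopsy taken with a catheter-borne device that removes a very small piece of the left ventricular wall. The comparison held 10 of the 85 RNA-seq libraries of the series. The libraries were chosen by their labels, lateral at 14 days or apical at baseline, and by 2 rules on their counts: a total of at least 1000000, and 7 to 60% of the counts in the 10 most counted genes. All 6 libraries of 14 days and 4 of the 6 baseline libraries passed. Baseline library 3 was left out because its 10 most counted genes held 2.50% of its counts, and baseline library 4 because they held 74.5%.

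The animals were 3 female farm pigs of mixed Yorkshire-Swedish breed, labelled swine 1640, 1644 and 5385. Their age was not given in the sources used here. In each animal the distal left anterior descending artery was closed with a balloon and then reopened, and every animal was its own control. Baseline biopsies were taken under sedation and anaesthesia before the occlusion and served as the reference for both regions. The 14-day biopsies came from the basal lateral wall, outside the territory of the closed artery, under the same kind of anaesthesia. The animals received amiodarone just before the intervention and again an hour later, so the first dose may have preceded the baseline biopsies too. Buprenorphine and meloxicam were given as analgesia after the intervention, before the 14-day biopsies. Baseline biopsies were labelled apical and 14-day biopsies lateral, although the study states that baseline biopsies were not aimed at any region. Time after the infarction, position in the ventricle and the drugs given in between cannot be told apart. Baseline library 1 and 14-day libraries 1 and 2 came from swine 1644, baseline library 6 and 14-day libraries 3 and 6 from swine 1640, and baseline libraries 2 and 5 and 14-day libraries 4 and 5 from swine 5385. Libraries of 1 animal are repeated samples of that animal, and the p-values below measure the spread between libraries.

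The wall away from an infarct, often called the remote myocardium, keeps its blood supply but takes over work from the lost segment. It is known for remodelling over days to weeks, in which fibroblasts lay down matrix, surviving cardiomyocytes enlarge and switch on stress genes such as natriuretic peptides, and leukocytes enter. The first hours after the occlusion are known for immediate early genes, which encode short-lived transcription factors and feedback phosphatases.

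Total counts ran from 5184915 to 16659110 over the 10 libraries. In 14-day libraries 2 and 3, 22076 and 20949 genes reached 1 CPM (counts scaled to a library total of 1000000), against 13316 to 16557 in the other 8. These libraries also had the largest scaling factors, 1.76 and 1.52, and lay at 70.3 and 62.8 on the first principal component, which held 67.9% of the variance of the 500 most variable genes. Baseline library 3, which the rules left out, had 23012 genes at 1 CPM, so a count of this size also occurred before the infarction. Baseline library 1 lay at 66.4 on the second component, which held 19.8%.

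Each library was checked against markers of myocardium. MYL2, the ventricular myosin light chain, had 1.97 CPM in baseline library 1 and 3132, 3192 and 1573 CPM in baseline libraries 2, 5 and 6. In the 14-day libraries 1 to 6 it had 3394, 477, 1025, 1729, 3163 and 747 CPM. TNNT2, cardiac troponin T, had 2.30 CPM in baseline library 1 and at least 970 CPM in each of the other 9 libraries. Baseline library 1 therefore lacked the defining transcripts of cardiomyocytes, while the other 9 held them. The study listed genes of collagen-rich outlier biopsies. The 5 of these that were tested here summed to 38467 CPM in baseline library 1, 4921 to 11025 CPM in the other 3 baseline libraries and 3053 to 17840 CPM at 14 days. Whether the study kept baseline library 1 could not be worked out. The study kept 3 of its 6 sequenced baseline biopsies, fewer than the 4 used here. The comparison therefore includes at least 1 baseline library that the study left out. The study's own exclusions were not applied here. The summed level of the 7 cardiomyocyte markers tested was 112.8 CPM in baseline library 1, 12017 to 28630 CPM in the other 3 baseline libraries and 3550 to 27346 CPM at 14 days. The 8 adipocyte markers summed to 3833 CPM in baseline library 1 and to 73.5 to 296 CPM in the other 9. The 11 fibroblast markers summed to 33858 CPM in baseline library 1, 3606 to 9473 CPM in the other 3 baseline libraries and 2459 to 15627 CPM at 14 days. Many results that rested on baseline library 1 or on 14-day libraries 2 and 3 are given with and without them, or with their range over all settings run. Others are given only in the full fit.

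**Figure D1:**
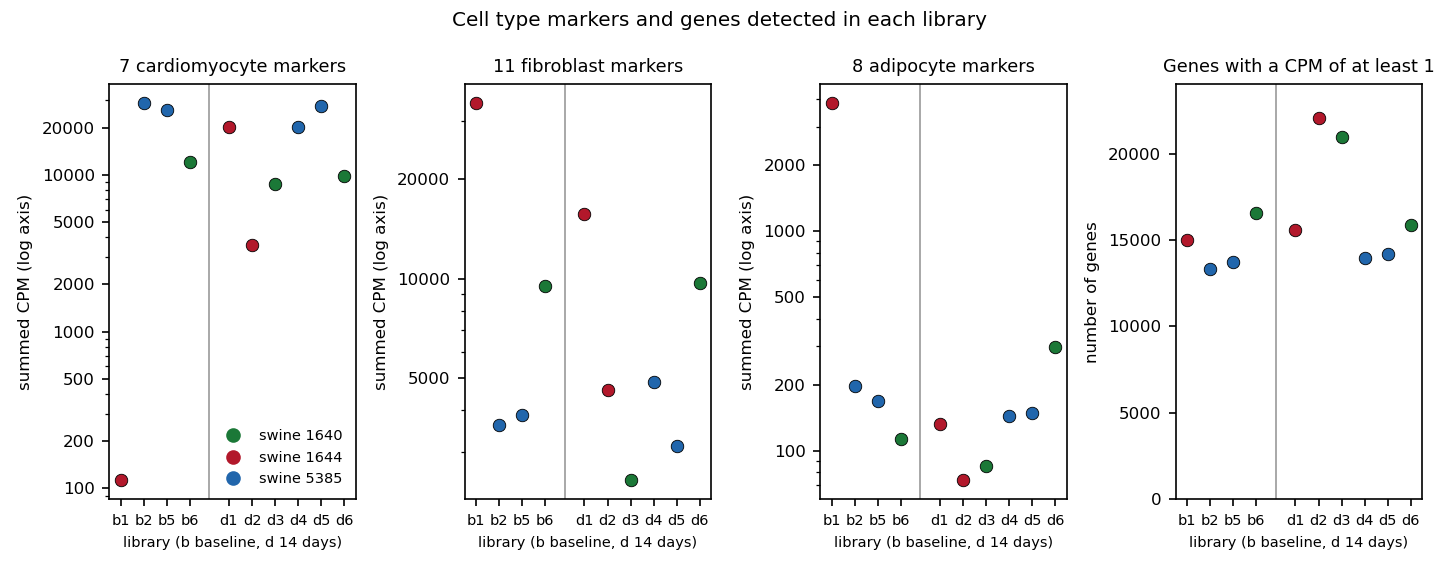
Summed CPM of cardiomyocyte, fibroblast and adipocyte markers (log axes) and the number of genes with a CPM of at least 1 (linear axis) in each library, coloured by swine, with baseline libraries (b) left of the line and 14-day libraries (d) right of it. Baseline library 1 sits at 112.8 CPM of cardiomyocyte markers and 3833 CPM of adipocyte markers, and 14-day libraries 2 and 3 have the most genes.

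No gene differed between the non-infarcted region at 14 days and baseline after correction for multiple testing. Of 18185 genes tested, 0 passed an adjusted p of 0.05 in edgeR's quasi-likelihood test (0%), and the smallest adjusted p was 0.512. DESeq2 and limma-voom also called 0. At an unadjusted p under 0.05, edgeR had 1564 genes (8.6%), of which 1101 were higher (6.05%) and 463 lower (2.55%) at 14 days. The split between directions moved with the scaling and with the tool. Of the genes under that threshold, 70.4% were higher in edgeR, 80.6% with RLE size factors and 90.7% with library totals alone. The share was 86.4% in DESeq2 and 49.8% in limma-voom, which was run with the same TMM scaling as edgeR. Fold changes below are edgeR's log2 fold changes, 14 days over baseline, and intervals are at 95%. Over all genes the median log2 fold change was 0.04, and 52.2% of genes had a positive value. The median interval, which is not corrected for multiple testing, reached 0.99 to either side. For a typical gene an estimate below about that size was not told from 0 even before correction. After correction much larger estimates were not called either, such as 3.38 for KCNK3 and -4.49 for FASN (adjusted p of 0.512 for each in edgeR's test).

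A few libraries carried most of the genes with a small unadjusted p. 14-day libraries 2 and 3 held the top pair of values among the 10 libraries in 970 of the 1101 higher genes (88.1%), against 5462 of the 18185 tested genes (30%). Baseline library 1 was the highest library in 316 of the 463 lower genes (68.3%), against 3183 of all tested genes (17.5%). Part of each excess follows from the selection, as higher genes favour 14-day libraries on top and lower genes baseline libraries. Without 14-day libraries 2 and 3 and baseline library 1, 210 genes had an unadjusted p under 0.05, again with 0 called by edgeR. Of these, 41 of the higher and 37 of the lower were among the 1101 and the 463. Without baseline library 1 alone, 712 of 18115 genes were higher and 210 lower at an unadjusted p under 0.05 in edgeR's test.

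In 0.731% of the genes the 6 libraries of 14 days did not overlap the 4 of baseline. All 14-day libraries lay above all baseline libraries in 61 genes (0.335%) and below them in 72 genes (0.396%). The genes described next are, of those with a symbol, the 10 in each direction with the smallest p. Each had an adjusted p of 0.512 in edgeR's test. Because groups that do not overlap also fix the direction within each animal, the values by swine given for these genes show sizes only.

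COMP, cartilage oligomeric matrix protein (chr2:59061409-59068951, Sscrofa11.1), binds collagens and is secreted by fibroblasts in scar and tendon. It had 0.740, 0.224, 0.340 and 0.267 CPM in baseline libraries 1, 2, 5 and 6, from 9, 1, 2 and 5 counts. At 14 days libraries 1 to 6 had 3.88, 5.14, 3.73, 2.31, 2.35 and 1.68 CPM, from 38, 95, 46, 11, 12 and 20 counts. The lowest 14-day library stood above the highest baseline library, at a low level in both groups. The log2 fold change was 2.95 (interval 1.26 to 4.64, unadjusted p = 0.00168), and 3.12 without the 3 libraries that stood apart. Over all settings run that tested COMP, the smallest value was 1.29. Within swine 1640, 1644 and 5385 the difference of mean log2 CPM was 2.50, 2.29 and 2.36, nearly the same in each animal.

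A pair of potassium channel genes stood above baseline in every 14-day library. KCNS3 (chr3:119951110-119989541), a modifier subunit of voltage-gated potassium channels, had 0.493, 2.69, 3.74 and 4.06 CPM at baseline and 11.04, 19.5, 15.2, 4.62, 12.7 and 13.7 CPM at 14 days. The fitted difference was 2.22 on the log2 scale (interval 0.93 to 3.52), and the groups came close only at baseline library 6 and 14-day library 4. KCNK3 (chr3:112322446-112359212), a background potassium channel that sets the resting potential, had 0.657, 0.224, 1.02 and 1.28 CPM at baseline and 2.25, 16.9, 17.1, 9.65, 3.13 and 3.10 CPM at 14 days. For KCNK3 the log2 fold change was 3.38, and 2.32 without the 3 libraries. By swine the difference ran from 1.22 to 4.39 on the log2 scale for KCNS3 and from 2.34 to 2.96 for KCNK3. Over all settings run, the smallest log2 fold change was 0.90 for KCNS3 and 0.60 for KCNK3.

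The other 7 genes above baseline were led by the 14-day libraries with the most genes. AHRR, a repressor of the aryl hydrocarbon receptor, had 0.448 to 3.10 CPM at baseline, 29.3 and 31.2 CPM in 14-day libraries 2 and 3, and 3.88 to 6.79 CPM in the other 4. AKAP3, an anchoring protein for protein kinase A, had 4.08 to 10.4 CPM at baseline, 27.6 and 25.6 CPM in libraries 2 and 3, and 10.6 to 15.3 CPM in the other 4. CD5, a surface receptor of T cells, followed the same order, with at most 0.908 CPM at baseline, 9.90 and 8.11 CPM in libraries 2 and 3, and 1.18 to 3.47 CPM elsewhere. The log2 fold changes of AHRR, AKAP3 and CD5 were 2.86, 1.21 and 2.95, and 1.59, 0.93 and 1.58 without the 3 libraries. Over all settings run they stayed positive, and their smallest values were 0.60, 0.33 and 0.37. FCRL1, a receptor of B cells, ranged from 0 to 1.82 CPM at baseline and from 2.35 to 11.9 CPM at 14 days. CHRNB2, CLEC5A and SLFN14 rested on very few reads. CHRNB2, a nicotinic receptor subunit, had 2, 0, 0 and 7 counts at baseline and 8, 128, 65, 3, 9 and 6 at 14 days. CLEC5A, a receptor of myeloid cells, had 4 counts in baseline library 6 and 0 in the other 3, against 3, 60, 27, 2, 3 and 11 at 14 days. SLFN14 had at most 4 counts at baseline. The log2 fold changes of CHRNB2, CLEC5A, SLFN14 and FCRL1 were 3.92, 3.91, 3.49 and 2.48, and with all 6 baseline biopsies they turned to -0.11, -0.66, -4.64 and -0.16.

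The genes that lay below baseline in every 14-day library were measured at higher levels. TBX3 (chr14:37582704-37596767), a T-box repressor known from the conduction system and from development, had 29.9, 86.4, 53.8 and 33.2 CPM in baseline libraries 1, 2, 5 and 6. At 14 days it had 14.4, 7.47, 15.7, 24.5, 27.8 and 13.1 CPM. The means were 50.8 ± 25.9 CPM (SD, n = 4) and 17.2 ± 7.60 CPM (SD, n = 6). The log2 fold change was -1.57 (interval -2.47 to -0.67, unadjusted p = 0.00173), and -1.56 without the 3 libraries that stood apart. The differences of mean log2 CPM were -1.20, -1.51 and -1.38 in swine 1640, 1644 and 5385.

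HLX (chr10:10263441-10269882), a homeobox transcription factor, had 24.3, 47.0, 27.2 and 25.4 CPM at baseline and 16.3, 8.82, 10.6, 19.9, 19.8 and 13.8 CPM at 14 days. For HLX the log2 fold change was -1.06 (interval -1.67 to -0.45), with -1.05, -1.00 and -0.84 in the 3 animals. VASH1, vasohibin, is made by endothelial cells and restrains vessel growth. It had 48.4, 47.9, 37.5 and 32.8 CPM at baseline and 29.7, 18.7, 23.1, 29.4, 23.1 and 16.9 CPM at 14 days, a log2 fold change of -0.83. CDC42EP5, an effector of the small GTPase CDC42, had 4.65 to 9.62 CPM at baseline and 1.14 to 2.77 CPM at 14 days, a log2 fold change of -1.63. FBXL6, ZMYM5, N4BP3, CHID1 and NSMF had log2 fold changes between -1.10 and -0.58. ZMYM5 had the narrowest range of these, 25.5 to 30.9 CPM at baseline and 14.5 to 23.5 CPM at 14 days. NSMF was lowest in 14-day libraries 2 and 3, at 14.0 and 23.4 CPM. Its log2 fold change ranged from -0.96 to -0.30 over all settings run.

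SPRY4 restrains the signalling of receptor tyrosine kinases through the MAP kinase pathway. It had 35.0, 41.2, 40.8 and 48.6 CPM at baseline and 16.7, 9.25, 19.1, 31.1, 25.3 and 27.4 CPM at 14 days, a log2 fold change of -0.95 (interval -1.55 to -0.35). DUSP6 dephosphorylates the MAP kinase ERK and, like SPRY4, is switched on by the pathway it restrains. DUSP6 (chr5:93303058-93307510) was named after its values were seen: it had 24.0, 17.5, 18.0 and 17.0 CPM at baseline and 9.50, 3.84, 6.49, 7.97, 9.21 and 10.9 CPM at 14 days. Its log2 fold change was -1.26 (interval -2.26 to -0.27, unadjusted p = 0.0155), and -0.91 without the 3 libraries. DUSP1, a phosphatase of stress-activated MAP kinases, had 9.25 to 17.2 CPM at baseline and 2.92 to 8.63 CPM at 14 days, with a log2 fold change of -1.20 (unadjusted p = 0.0826). ID1 (chr17:35316518-35317742), an inhibitor of helix-loop-helix factors and a target of bone morphogenetic proteins (BMP), was also named after its values were seen. It had 24.3, 57.1, 46.2 and 42.6 CPM at baseline and 15.4, 4.92, 19.1, 21.4, 17.6 and 26.7 CPM at 14 days, so that only 14-day library 6 reached above baseline library 1. BMP6, a ligand of that pathway, lay above baseline in every 14-day library, with 43.4 to 50.6 CPM at baseline and 61.1 to 114.4 CPM at 14 days. The log2 fold change of BMP6 was 0.71 (unadjusted p = 0.0525), and that of ID1 was -1.28 (unadjusted p = 0.000983).

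Calls appeared only when another tool was combined with other libraries. DESeq2 on the 10 libraries alone, without the other timepoints, called 3 genes: COMP at a log2 fold change of 3.17 (adjusted p = 0.0441), KCNK3 at 3.65 (adjusted p = 0.0458) and DUSP6 at -1.19 (adjusted p = 0.0441). DESeq2 on the 20 libraries of all timepoints without baseline library 1 and 14-day libraries 2 and 3 called 1 gene, ID1, at -1.30 (adjusted p = 0.00342). Both of these settings were chosen after the data were seen, and edgeR called 0 genes in the same libraries.

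**Figure D2:**
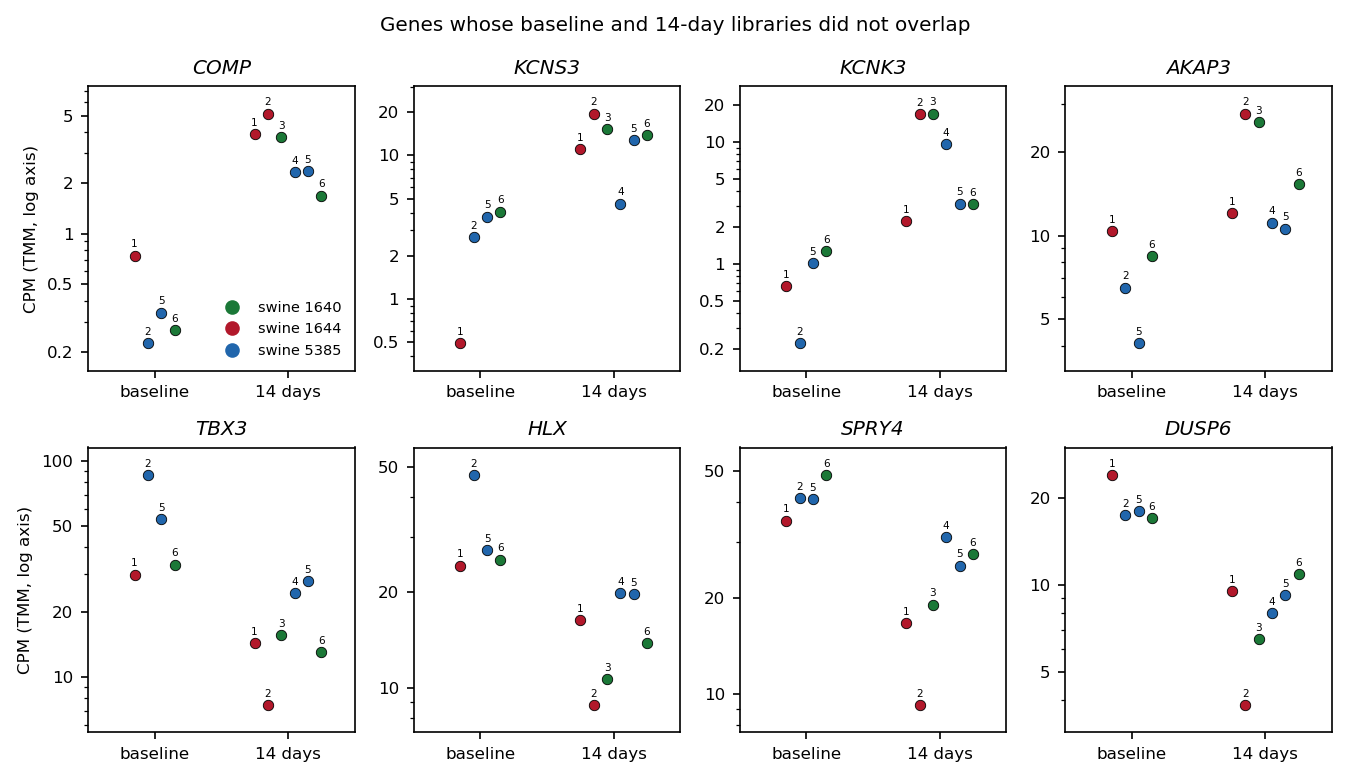
CPM (log axes) of 8 genes in the 4 baseline and the 6 14-day libraries, each point 1 library with its number, coloured by swine. COMP, KCNS3, KCNK3 and AKAP3 lie above baseline in every 14-day library and TBX3, HLX, SPRY4 and DUSP6 below, and none of them passed edgeR's test after correction.

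Values at the timepoints in between place 14 days within a longer course. The non-infarcted region had 3 libraries in the first hour, 3 between 1 and 3 h and 4 after 2 days. Median COMP was 0.303 CPM before the occlusion, 0.478, 1.03 and 0.352 CPM at these timepoints and 3.04 CPM on day 14, and every 14-day library lay above all libraries of the other timepoints, which reached 1.35 CPM. Median TBX3 was 43.5, 29.3, 14.9, 19.8 and 15.03 CPM in the same order, so the median was already near its 14-day value at 1–3 h, and the ranges overlapped from then on. HLX stayed between 25.3 and 32.8 CPM in its medians up to 2 days and had a median of 15.1 CPM at 14 days. ID1 had medians of 44.4, 31.6, 24.8, 18.3 and 18.4 CPM in the same order.

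DUSP1 and MYC, an immediate early gene that drives growth, were highest at 1–3 h, with medians of 78.4 and 138.97 CPM. At 14 days the medians of DUSP1 and MYC were 5.91 and 4.75 CPM, against 14.0 and 6.97 CPM at baseline. MYC ranged from 1.57 to 15.1 CPM at baseline and from 3.78 to 6.17 CPM at 14 days, and the groups overlapped.

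ZBTB16 (chr9:41639536-41839254), a zinc finger transcription factor that responds to glucocorticoids, had 106.2, 143.4, 142.0 and 107.9 CPM at baseline and 434.6, 183.3, 236.7, 123.6, 218.7 and 354.4 CPM at 14 days. Only 14-day library 4 lay within the baseline range. The log2 fold change was 1.05 (interval 0.03 to 2.07, unadjusted p = 0.0435), and 1.08 without the 3 libraries that stood apart. The difference was 1.42 in swine 1640, 1.41 in swine 1644 and 0.20 in swine 5385. Its medians of 335 and 382 CPM at 0–1 h and 1–3 h were above the 228 CPM of 14 days. Of the 16 glucocorticoid response genes tested, 1 was higher and 2 were lower at an unadjusted p under 0.05, against 6.05% and 2.55% of all genes. The list's median log2 fold change was -0.38. Without baseline library 1, 0 were higher and 0 lower at that threshold in edgeR's fit, and the median was -0.28.

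**Figure D3:**
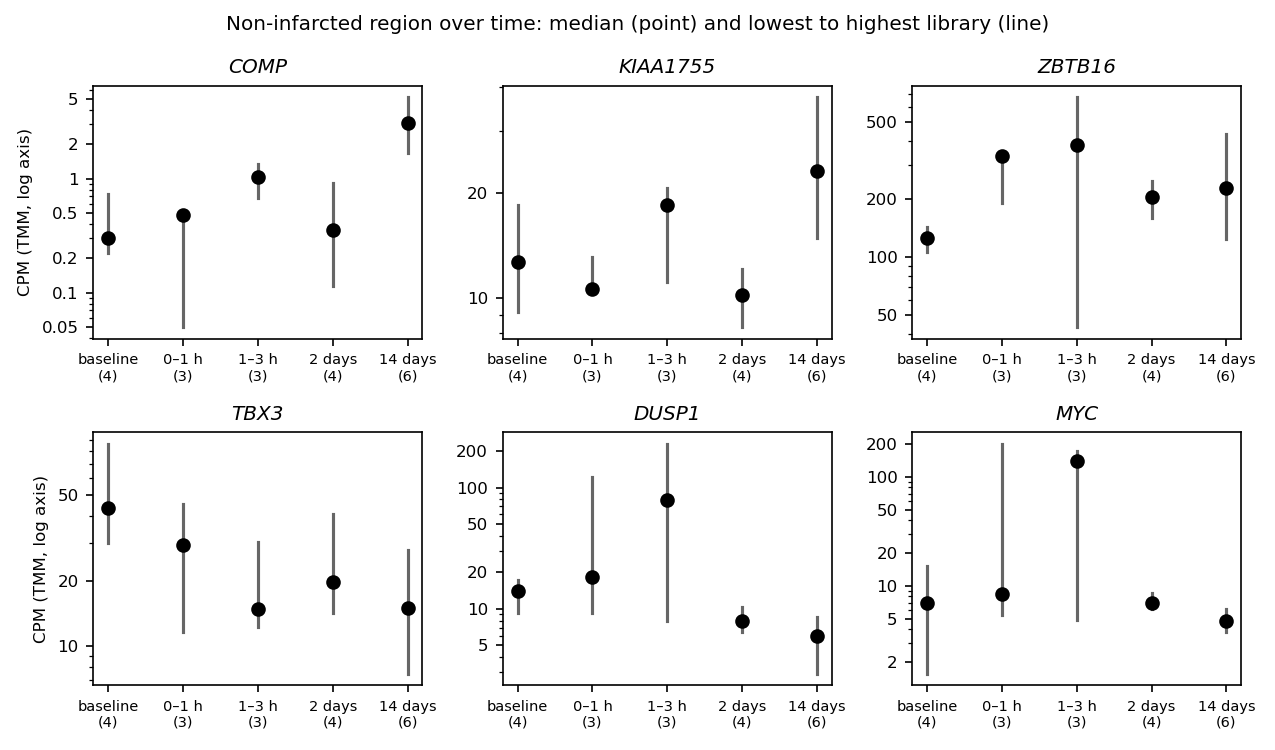
CPM (log axes) in the non-infarcted region over time for 6 genes, with the median as a point, the lowest to highest library as a line and the number of libraries in brackets; a value of 0, found in 1 library of COMP at 0–1 h, is drawn at the foot of the axis. COMP and KIAA1755 have their highest medians at 14 days (3.04 and 23.1 CPM), and DUSP1 and MYC at 1–3 h.

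The study named 33 genes that varied over all timepoints of the non-infarcted region, chosen on libraries of this series, so that their values here are not independent evidence. At an unadjusted p under 0.05, 7 were higher and 2 lower at 14 days, against 6.05% and 2.55% of all genes tested. The median log2 fold change of the 33 was -0.20. In 3 genes, COMP, CDCA2 and ENSSSCG00000041619, every 14-day library lay above baseline, and in 2, DUSP1 and HLX, every one lay below. Over all genes these shares were 0.335% and 0.396%. KIAA1755 had 11.01, 9.17, 14.4 and 18.4 CPM at baseline and 20.3, 22.9, 23.3, 36.9, 14.9 and 37.3 CPM at 14 days, a log2 fold change of 0.96 (unadjusted p = 0.00425), with 0.67, 0.96 and 1.01 in swine 1640, 1644 and 5385. LRRC43 reached 45.8 CPM in 14-day library 5 and was at or below 5.74 CPM in the other 9 libraries, and its log2 fold change of 5.05 was 3.32 without that library.

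Matrix genes were not uniformly higher or lower. In the list of 36 tested extracellular matrix genes, 1 was higher and 4 were lower at an unadjusted p under 0.05, against 6.05% and 2.55% of all genes. A positive log2 fold change was found in 13 of 36. The list's median was -0.62, against 0.04 over all genes. That value followed baseline library 1: without it the median was 0.25, with 25 of 36 positive, and 0.30 with 30 of 36 positive when 14-day libraries 2 and 3 were left out too. COL1A1, the chain of the main fibrillar collagen, had 14674 CPM in baseline library 1, 1268, 1172 and 4089 CPM in baseline libraries 2, 5 and 6, and 6656, 1795, 822, 1725, 1030 and 4024 CPM at 14 days. Its log2 fold change was -0.99 with baseline library 1 and 0.30 without it. FN1, fibronectin, had a log2 fold change of -0.84 with that library and 0.83 without it. In this and other bulk comparisons, fewer cells of a type and less RNA per cell cannot be told apart.

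COL4A1 and COL4A2, the chains of basement membrane collagen, differed from the fibrillar collagens in that baseline library 1 did not stand apart. COL4A1 had 2664, 3809, 2340 and 1937 CPM at baseline and 2353, 525.8, 905, 1718, 1759 and 1232 CPM at 14 days, with a log2 fold change of -0.92 (unadjusted p = 0.0217). The groups overlapped at 14-day library 1. COL4A2 had a log2 fold change of -0.79. Over all settings run, COL4A1 ranged from -1.13 to -0.36 and COL4A2 from -0.97 to -0.24.

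Of the 9 markers of activated fibroblasts tested, COMP and CILP were higher at an unadjusted p under 0.05, against 6.05% of all genes. The list's median was 0.54. CILP, a matrix protein of cardiac fibroblasts, had 9.94 to 18.7 CPM at baseline and 174, 32.9, 17.8, 3.15, 6.66 and 19.4 CPM at 14 days. Both 14-day libraries of swine 5385 lay below every baseline library, and the log2 fold change of 1.72 was 0.33 without 14-day library 1. TNC, tenascin C, had a log2 fold change of 1.34 (unadjusted p = 0.204) and also ranged widely at 14 days, from 3.15 to 75.2 CPM. POSTN did not reach the expression filter.

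Lists of cardiomyocyte and energy metabolism genes had negative medians. None of the 14 cardiac stress genes, 19 sarcomere genes, 23 genes of glucose metabolism and 37 nuclear genes of the respiratory chain had an unadjusted p under 0.05 in edgeR's fit, and DESeq2 and limma-voom called 0 of them. Their medians were -0.31, -0.24, -0.31 and -0.27. All 23 genes of glucose metabolism and 36 of 37 nuclear genes of the respiratory chain had a log2 fold change at or below 0. The median of the stress genes turned to 0.01 with library totals and to 0.67 in limma-voom, and that of the sarcomere genes to 1.30 in limma-voom, whereas glucose metabolism and the nuclear respiratory chain genes stayed negative with RLE size factors, library totals, DESeq2 and limma-voom. Without baseline library 1 the 4 medians were -0.70, -0.68, -0.54 and -0.56, and without 14-day libraries 2 and 3 that of the nuclear respiratory chain genes turned to 0.05. The sarcomere median was -0.63 in swine 1640, -0.44 in swine 5385 and 7.39 in swine 1644, whose baseline library held few cardiomyocyte transcripts. Of the 37 nuclear respiratory chain genes, 34 were higher at 14 days in swine 1644, 1 in swine 1640 and 4 in swine 5385. Of the 23 genes of glucose metabolism, 11 were higher in swine 1644, 1 in swine 1640 and 6 in swine 5385. The summed cardiomyocyte markers were 12017 to 28630 CPM in baseline libraries 2, 5 and 6 and ranged below that at 14 days, to 3550 CPM, and their part in these values was not tested.

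NPPB encodes the B-type natriuretic peptide, a marker of wall stress. It had 0.247, 1.12 and 2.72 CPM in baseline libraries 1, 2 and 5 and 442 CPM in baseline library 6. At 14 days it had 34.1, 39.8, 8.03, 120, 3.53 and 0.251 CPM. Swine 1640, which held the 442 CPM at baseline, had 8.03 and 0.251 CPM at 14 days. The log2 fold change was -1.72 (unadjusted p = 0.230) and became 4.71 when baseline library 6 was left out. NPPA, MYH7 and TTN had no identifier with a symbol here and were not analysed.

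Genes of fatty acid metabolism and fat storage had the smallest p-values of the comparison, and these rested on baseline library 1. FASN, fatty acid synthase, was named after its values were seen. It had 5693, 90.4, 65.1 and 81.0 CPM at baseline and 64.4, 19.97, 39.3, 64.2, 58.8 and 149.4 CPM at 14 days. Its log2 fold change of -4.49 had an unadjusted p of 0.000326, the smallest of all genes with edgeR, and was -0.28 without baseline library 1. CIDEC, a lipid droplet protein of fat cells, had 145.1 CPM in that library and 1.37 to 5.78 CPM in the other 9. In the list of 8 adipocyte markers, 7 were lower at an unadjusted p under 0.05, against 2.55% of all genes. The list's median of -2.17 became -0.14 without baseline library 1.

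Immediate early genes were not above their baseline level as a group. Of 27 tested, 1 was higher (FOSL1) and 0 were lower at an unadjusted p under 0.05 in edgeR's fit, against 6.05% and 2.55% of all genes. A positive log2 fold change was found in 5 of 27. The list's median was -0.44, and it was -0.47 without baseline library 1. KLF2 and DUSP1, 2 of the 27, were below baseline in every 14-day library, against 0.396% of all genes. KLF4, a zinc finger factor of endothelium and smooth muscle, had a log2 fold change of -1.18 (unadjusted p = 0.0807). PDK4, a kinase that shuts off glucose oxidation in fasting, had 152.04, 22.6, 24.1 and 46.7 CPM at baseline and 107.2, 22.1, 27.9, 23.1, 21.2 and 34.6 CPM at 14 days, and the groups overlapped.

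Endothelial markers had a median of -0.49 over 10 genes, with 1 lower at an unadjusted p under 0.05, against 2.55% of all genes. Without baseline library 1 it was -0.31 with 2 lower, and without all 3 libraries that stood apart -0.12 with 0 lower in edgeR's fit. KDR, the main VEGF receptor, had 123.7, 202.9, 168.3 and 168.3 CPM at baseline and 109.6, 45.1, 51.4, 172.9, 130.3 and 88.9 CPM at 14 days, a log2 fold change of -0.74 (unadjusted p = 0.0382). The lowest values were in 14-day libraries 2 and 3, and 14-day libraries 4 and 5 lay within the baseline range. Over all settings run, the log2 fold change of KDR ranged from -0.96 to -0.40. CDH5 and PECAM1, junction proteins of endothelium, had log2 fold changes of -0.69 and -0.49, and PECAM1 was at 0.014 without the 3 libraries.

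Lymphocyte markers had a median log2 fold change of 1.16 over 12 genes, 10 of them positive, with CD5 and LCK among those higher at an unadjusted p under 0.05 (6.05% of all genes). By animal the median was 1.05 in swine 1640, 1.36 in swine 1644 and 0.37 in swine 5385. LCK, a kinase of the T cell receptor, had 2.30, 0.671, 5.27 and 3.42 CPM at baseline and 3.07, 13.2, 8.28, 5.04, 8.82 and 8.13 CPM at 14 days. Its log2 fold change was 1.40 (unadjusted p = 0.0130), and 0.97 without the 3 libraries that stood apart. The list's median was then 0.53, with 0 of 11 higher at that threshold in edgeR's fit. CD3E, a chain of the T cell receptor complex, had a log2 fold change of 1.43 (unadjusted p = 0.125). CCL21, a chemokine of lymphatic vessels, had 3.91 to 28.5 CPM at baseline and 39.2 to 44.9 CPM in 5 of the 14-day libraries, with 14.5 CPM in library 5 (log2 fold change 1.20, unadjusted p = 0.0188). Macrophage markers had a median of -0.18 over 13 genes, which turned to 0.63 without baseline library 1 and to 0.05 with library totals.

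Interferon response and antigen presentation genes had positive values in 16 of 18, with a median log2 fold change of 0.25 and none at an unadjusted p under 0.05 in edgeR's fit. The value differed between animals, with medians of -0.05 in swine 1640, 0.26 in swine 1644 and 0.69 in swine 5385, where 15 of 18 were higher at 14 days. Over all genes the same medians were -0.05, 0.04 and 0.04. RSAD2, an antiviral enzyme, had 54.8 and 60.5 CPM in both baseline libraries of swine 5385 and 184.9 and 130.7 CPM in its 14-day libraries. In the other animals it had 9.29 and 14.3 CPM at baseline and 9.01 to 37.9 CPM at 14 days. IFIH1, a sensor of viral RNA, reached 98.0 and 78.2 CPM in the 14-day libraries of swine 5385 and at most 41.9 CPM elsewhere.

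A conduction gene was highest in the 14-day libraries with the most genes. HCN4, the pacemaker channel, had 21.0 and 20.7 CPM in 14-day libraries 2 and 3 and 0 to 2.25 CPM in the other 8 libraries. The fitted difference of HCN4 was 3.58 on the log2 scale (unadjusted p = 0.0168), and 0.79 without the 3 libraries. Of the 10 tested markers of atrial or conduction myocytes, HCN4 among them, 4 had a positive log2 fold change, and the list's median was -0.16. TBX3, of the same list, lay below baseline in every 14-day library, with a log2 fold change of -1.57.

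**Figure D4:**
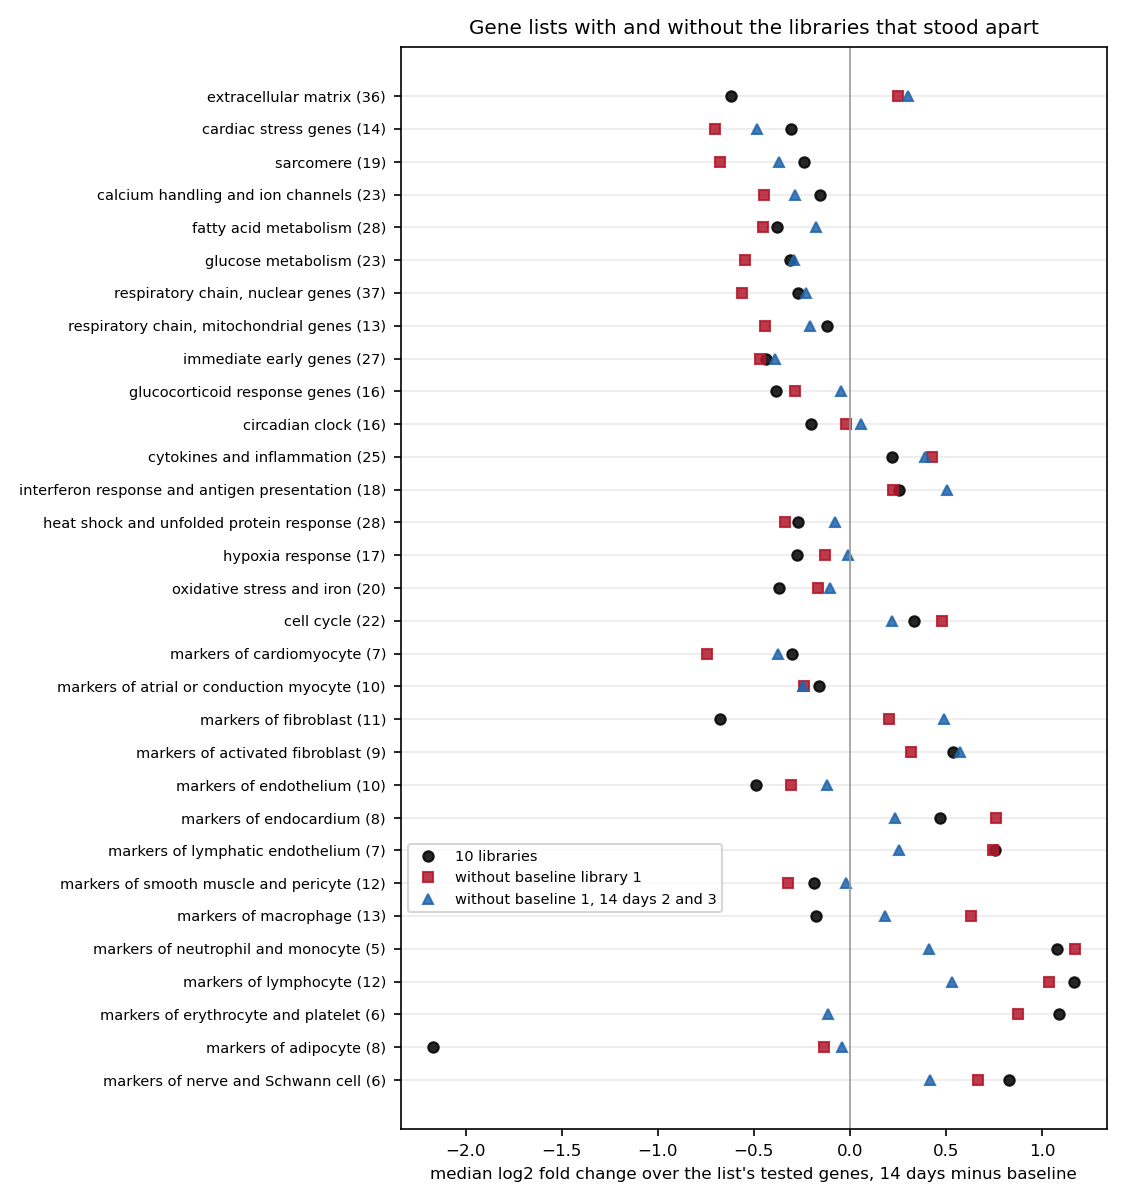
Median log2 fold change, 14 days minus baseline, over the tested genes of each list (number in brackets), for the 10 libraries and without the libraries that stood apart. Extracellular matrix moves from -0.62 to 0.25 and adipocyte markers from -2.17 to -0.14 when baseline library 1 is left out, and immediate early genes stay between -0.47 and -0.39.

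The non-infarcted and infarcted regions at 14 days were compared in a fit of 17 libraries, which included 7 of the 9 infarcted-region libraries of 14 days and the same 4 baseline libraries. Scaling was set anew in this fit, so CPM values differ slightly from those above. Of 18320 genes, 0 passed an adjusted p of 0.05 in edgeR's test (0%), the smallest adjusted p was 0.664, and 962 genes (5.25%) had an unadjusted p under 0.05. Of these 487 were higher (2.66%) and 475 lower (2.59%) in the non-infarcted region, and 55% of all genes had a positive log2 fold change. DESeq2 called 2 genes, FAM13C and LEAP2, both named after their values were seen.

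FAM13C (chr14:62622895-62754404) had 82.3, 80.2, 69.2, 102, 77.1 and 96.7 CPM in the non-infarcted region at 14 days. In infarcted-region libraries 1, 2, 4, 5, 6, 8 and 9 it had 43.7, 58.7, 44.6, 41.3, 54.6, 49.9 and 47.8 CPM. The regions did not overlap, with a log2 fold change of 0.80 ± 0.18 (SE) in edgeR's fit (adjusted p = 0.664) and 0.89 in DESeq2 (adjusted p = 0.00511). LEAP2, a hormone that blocks the ghrelin receptor, had 12.5, 4.45, 6.07, 7.72, 9.89 and 12.7 CPM in the non-infarcted region and 15.7, 19.4, 20.8, 16.7, 13.0, 18.9 and 17.5 CPM in the infarcted region. The regions again did not overlap, by a narrow gap from 12.7 to 13.0 CPM. The log2 fold change was -0.97 in edgeR's fit and -0.91 in DESeq2 (adjusted p = 0.00511). How many of all tested genes did not overlap between the regions was not counted. In the fit against baseline, the baseline libraries had 14.0 to 18.0 CPM of LEAP2.

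COMP and TBX3, which had stood apart from baseline, overlapped between regions. COMP ranged from 0.134 to 12.8 CPM in the infarcted region and TBX3 from 5.01 to 45.0 CPM, and both ranges enclosed the non-infarcted values. For COMP this rested on infarcted-region library 5, at 12.8 CPM. The others had 1.42, 0.607, 0.134, 2.07, 0.135 and 0.139 CPM, against 1.73 to 5.10 CPM in the non-infarcted region. The difference between regions was 0.41 for COMP (unadjusted p = 0.635) and -0.56 for TBX3 (unadjusted p = 0.206). Over all settings run that tested COMP, its difference between regions ranged from 0.20 to 2.05.

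Immediate early and matrix genes had negative medians between regions, none of them passed correction, and both lists moved with infarcted-region library 5. Of 27 immediate early genes, 21 were lower at an unadjusted p under 0.05, with a median of -1.59, and 10 were lower, with a median of -0.72, without that library. Over all genes 2.59% were lower at that threshold, and 371 of 18104 without library 5. MYC had 108.6 CPM in infarcted-region library 5, 5.16 to 10.8 CPM in the other 6 and 3.75 to 6.07 CPM in the non-infarcted region. DUSP1 had 76.7 CPM in library 5, 38.2 CPM in library 9, 5.76 to 13.9 CPM in the other 5 and 2.90 to 8.93 CPM in the non-infarcted region, a log2 fold change of -1.94 (unadjusted p = 0.00238). Of 36 matrix genes, 16 were lower, with a median of -1.31, and 2 were lower, with a median of -0.50, without library 5. That library had 41470 CPM of COL1A1, the most of the 13, and 15.8 CPM of MYL2, the least.

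**Figure D5:**
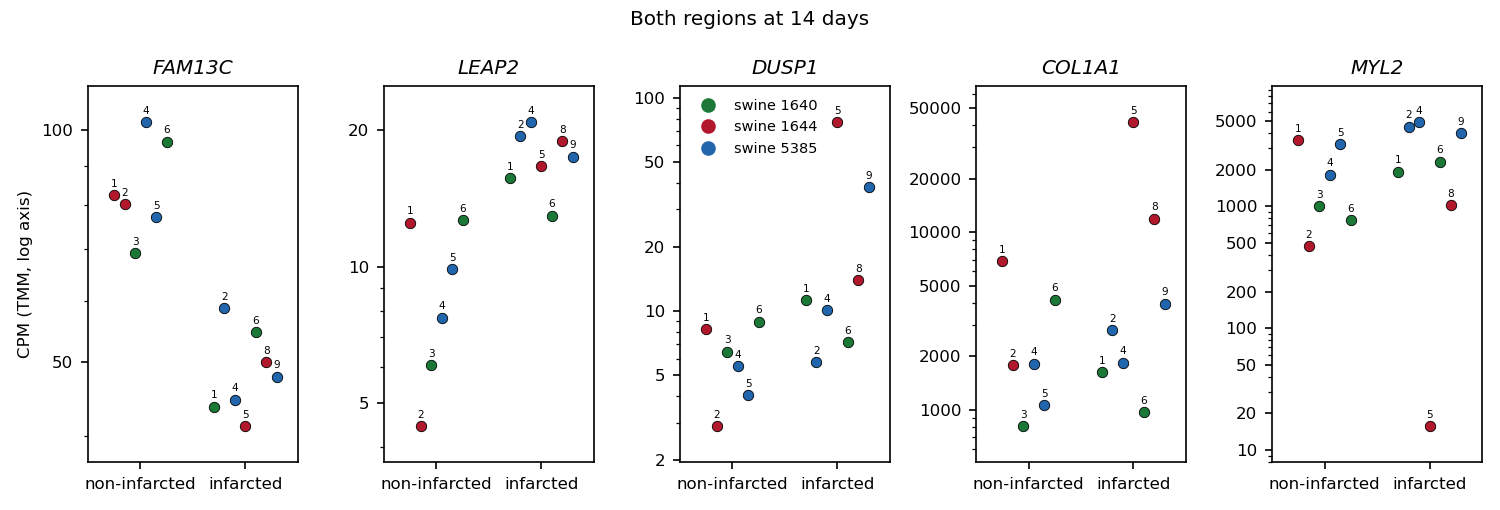
CPM (log axes) of 5 genes in the 6 non-infarcted and the 7 infarcted-region libraries of 14 days, each point 1 library with its number, coloured by swine. FAM13C and LEAP2 do not overlap between regions, while the difference of DUSP1 and COL1A1 leans on infarcted-region library 5, which has 15.8 CPM of MYL2.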

How the data were processed

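Libraries were made from total RNA of micro-EMB with a stranded SMARTer Pico kit. The authors mapped the reads to Sscrofa11.1 with STAR and assigned them to genes with featureCounts (versions not given in the sources used here), and deposited raw counts of 85 libraries for 31907 genes, counted without regard to strand, so reads of overlapping antisense genes cannot be told apart. MYH6 may share reads with its paralog MYH7. Symbols were found for 15029 identifiers, and gene positions are from RefSeq.

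Here genes that reached a CPM of 1 in 20% or more of the libraries were tested with edgeR 4.0.16 (TMM, quasi-likelihood, R 4.3.3), with timepoint as the only term over 20 libraries of baseline and the non-infarcted region. P-values were adjusted by Benjamini-Hochberg over all tested genes and called at 0.05. DESeq2 1.42.0 and limma 3.58.1 were alternatives. CPM in the text are TMM-scaled, and log2 CPM carry a prior count of 2. The fit was checked on simulated data. Same-swine libraries of different timepoints deviated together more than others (mean r of 0.113 over 51 pairs against -0.051 over 106), so the swine was tried as a block.

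Members and gene lists were chosen with earlier results of these data known. Named genes were the 10 in each direction with the smallest p among non-overlapping genes with a symbol, up to 4 of each list and a preset set, and others where the text says so. Of the study's own comparisons only gene names were used, as lists, and no fold changes or p-values. Some genes that met this rule are not reported here.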

Additional observations from a re-analysis of the deposited data

Results flagged for a closer look

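Each gene described was checked within each group for a library far from the rest by Dixon's test at 95%. Such a library was found 15 times, in 10.3% of the groups checked, where chance gives about 1 in 20. The genes were partly chosen for their values and many share a distant library, so the 2 rates are not comparable. All values here are log2 CPM. Baseline library 1 was the distant one in 10 of these. It was low in cardiomyocyte genes, with -0.87 for ACTC1, 4.38 for MYH6, 1.13 for MYL2, 1.33 for TNNT2, 1.63 for MYL3 and 1.77 for DES. It was high in fat genes, with 12.5 for FASN, 7.18 for CIDEC and 8.76 for FABP4, and had 4.60 for DUSP6 against 4.11 to 4.19 in the other baseline libraries.

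Among the other 5, baseline library 6 had -1.22 for CLEC5A, whose other baseline libraries were at 0 counts, and baseline library 2 had 5.56 for HLX against 4.62 to 4.78. At 14 days, library 1 had 6.75 for PDK4, library 5 had 3.88 for CCL21 and library 2 had 2.36 for ID1.

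FAM13C was the only 1 of 70 genes compared that moved in opposite directions from the baseline mean in every library of the 2 regions. It had been named after its difference between the regions was seen, so this is not independent evidence. Its mean log2 CPM minus that of baseline was 0.33 in the non-infarcted region and -0.46 in the infarcted region at 14 days. At baseline FAM13C had 46.3 and 48.6 CPM in swine 5385, 86.3 CPM in swine 1640 and 89.5 CPM in swine 1644. Against its own baseline the non-infarcted region differed by -0.09, -0.15 and 0.84 on the log2 scale in swine 1640, 1644 and 5385, so only swine 5385 was higher. In the infarcted region swine 5385 had 58.7, 44.6 and 47.8 CPM, scaled in the fit of both regions, close to its baseline values. The difference between the regions had an adjusted p of 0.664 with edgeR and 0.00511 with DESeq2.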

How the results depend on the processing

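edgeR called 0 genes against baseline under every setting run, and limma-voom 0 in its 1 setting. DESeq2 called 3 genes on the 10 libraries alone and 1 without the 3 libraries that stood apart, and 2 between regions. Leaving out 1 library in turn gave 601 (without 14-day library 2) to 3024 (without baseline library 6) genes at an unadjusted p under 0.05, against 1564, and 498 to 2749 between regions. With all 6 baseline libraries there were 14 higher and 477 lower. RLE factors moved the median of all genes to 0.16, library totals to 0.29 and no filter to 0.30. The swine as replicate block changed no call (0 genes, 1060 higher and 377 lower at an unadjusted p under 0.05). Of 1687 single-gene values under alternatives, 42 turned sign and 6 passed the threshold only there. The causes were not tested.

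All log2 fold changes: with all 6 baseline libraries and with libraries of any count profile, CHRNB2 was -0.11 and -0.090, CLEC5A -0.66 and -0.62, SLFN14 -4.64 and -4.79, and FCRL1 -0.16 and -0.13. Without the 3 libraries, DESeq2 without baseline library 1, and DESeq2 without the 3, PDK4 was 0.55, 0.39 and 0.51, COL1A1 0.61, 0.33 and 0.56, COL3A1 0.49, 0.26 and 0.45, FN1 1.06, 0.89 and 1.02, and DCN 0.30, 0.14 and 0.26. FASN was 0.073 in edgeR and 0.042 in DESeq2 without the 3, PECAM1 0.014 in edgeR without the 3, and CIDEC 0.32 in DESeq2 without baseline library 1. On the 10 libraries with the swine as replicate block, NPPB was 2.67 and HBB 0.69. HBB was 0.79 with the block on 20 libraries and 0.94 with counts summed per swine. Between regions, ZBTB16 was 0.12 in limma-voom and COL1A1 0.26 without infarcted-region libraries 5 and 8. Leaving out 1 library in turn, PDK4 ranged from -1.25 to 0.32, COL1A1 from -1.50 to 0.30, COL3A1 from -1.27 to 0.21, FN1 from -1.38 to 0.83, DCN from -0.97 to 0.073, NPPB from -2.69 to 4.71, CIDEC from -4.01 to 0.12, HBB from -1.82 to 0.20, and ZBTB16 between regions from -0.46 to 0.22.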

Other observations

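HBB, beta globin of red cells, followed the animal rather than the timepoint. It had 5465 and 4299 CPM in the baseline and 3269 and 6497 CPM in the 14-day libraries of swine 5385, and 9.20 to 90.6 CPM in the 6 libraries of the other animals. Over all biopsies that passed the count rules in the 2 fits, swine 5385 had 2966 to 6528 CPM in 10 libraries, swine 1640 18.6 to 36.9 CPM in 8 and swine 1644 7.92 to 93.6 CPM in 9. In whole blood the animals overlapped, with 385 to 10992 CPM in 7 libraries of swine 5385, 445 to 13813 CPM in 7 of swine 1640 and 329 to 4610 CPM in 8 of swine 1644. Other red cell genes did not follow this order: SLC4A1, the anion exchanger of red cells, had 5 counts in each baseline library of swine 5385 and 15 and 4 counts in its 14-day libraries.

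Cell cycle genes had a median log2 fold change of 0.33 over 22 genes, 17 of them positive, and by animal 17 of 22 were higher in swine 1640, 18 in swine 1644 and 3 in swine 5385, with medians of 0.56, 0.57 and -0.44. Without the 3 libraries that stood apart the median was 0.22 and 14 of 22 were positive. CDK1, the kinase of mitosis, was the single gene higher at an unadjusted p under 0.05, against 6.05% of all genes. CDK1 had 429 and 247 counts in 14-day libraries 2 and 3 and fewer in each of the other 8 libraries.

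In the list of 20 genes of oxidative stress and iron, 4 were lower at an unadjusted p under 0.05, against 2.55% of all genes. A positive log2 fold change was found in 4 of 20. The 4 lower genes were GPX3, CAT, GPX4 and KEAP1, with log2 fold changes of -1.29, -1.23, -0.84 and -0.56. GPX3 and GPX4 are glutathione peroxidases, CAT is catalase and KEAP1 holds the antioxidant factor NRF2 in check. Baseline library 1 had 2404 counts of GPX3 and 5430 of CAT, the most of the 10 libraries, and without it none of the list was lower at an unadjusted p under 0.05 in edgeR's fit. Of heat shock and unfolded protein response genes (28 tested), hypoxia genes (17) and clock genes (16), 1, 0 and 0 had an unadjusted p under 0.05 in edgeR's fit, against 8.6% of all genes. The medians of the 3 lists were -0.27, -0.28 and -0.20. Without baseline library 1 these medians were -0.34, -0.13 and -0.02. By animal, swine 1644 had -0.99 for hypoxia and -0.91 for clock genes, and swine 5385 0.07 and -0.11.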
